A study of Arabidopsis thaliana with 12 samples.

Results

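Leaves of wild-type Arabidopsis thaliana, the accession Col-0, were compared between short and long days. All 6 wild-type arrays of the series entered the comparison, out of 12 arrays in all, and they were chosen by genotype and photoperiod in the labels. The long-day plants had 16 h of light and 8 h of dark and were 3 weeks old, and the short-day plants had 8 h of light and 16 h of dark and were 5 weeks old. Both groups carried no mutation, stood on soil with Hoagland medium, and had days at 20 °C and nights at 18 °C. Photoperiod and age therefore changed together and cannot be told apart in any result below. The hour of the day at which leaves were taken is not given in the sources used here. The other 6 arrays, also 3 in each photoperiod at the same ages, came from cs26, a SALK insertion line affected in an S-sulfocysteine synthase of the chloroplast. They serve here to ask whether the same contrast differed in another genotype. They also entered the fitted model, so the spread between replicates behind the wild-type errors and p-values was estimated with them included. Each group had 3 arrays, described as biological replicates in the design text.

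Plants read day length through the circadian clock and light receptors. Clock genes such as GI peak late in the day and pass the timing on to flowering genes, and Arabidopsis flowers sooner in long days. The length of the night also sets how leaves store and break down starch, since starch made in the light must feed the plant until dawn. Older rosette leaves in short days differ from younger ones in long days in growth, defence and ageing as well.

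Each array was an Affymetrix ATH1 GeneChip, and the values are RMA levels on a log2 scale, so that a difference of 1 is a 2-fold change. The table gave levels for 22746 probe sets other than controls, of which 13513 name a single gene (13356 genes) and 8730 are unnamed in the annotation used here. A probe set is called when its adjusted p is under 0.05 in a limma model with Benjamini-Hochberg adjustment over all probe sets, and the same holds for every adjusted p below. Array medians of the wild type lay between 5.43 and 5.48. Arrays of one group correlated at 0.9911 to 0.9956 across probe sets, and arrays of different photoperiods at 0.9225 to 0.9391. The 3 measured mesophyll markers, LHCB4.1, LHCB4.2 and RCA, were bright on every wild-type array, with levels from 11.94 to 13.80. The meristem marker CLV3 lay between 4.2 and 4.31 and the anther marker AMS between 3.87 and 4.07, both in the dim part of the scale. None of the 5 measured markers of meristem and dividing cells was called, and of 3 root markers only EXPA18 was (−0.47). The only vascular marker measured, SWEET11, fell by 1.09.

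Control probe sets also moved with the photoperiod. All 24 control probe sets for the Bacillus transcripts dap, lys, phe and thr were lower on the short-day arrays without overlap, by a median of −1.43 on the log2 scale (range −2.43 to −0.41). Of the 18 for bioB, bioC, bioD and cre, 8 were higher without overlap, and the median difference was 0.59. Probe sets at the 3′ end of the actin, GAPDH and ubiquitin controls differed by 0.09, 0.06 and −0.10 between the photoperiods, those in the middle of these transcripts by −0.93, −0.28 and −0.52, and those at the 5′ end by −0.19, −0.01 and −0.19. In a second set of these controls, actin differed by −0.23 at the 3′ end, −0.74 in the middle and −1.17 at the 5′ end. GAPDH there differed by −0.27 at the 3′ end and −0.72 at the 5′ end, and ubiquitin by −0.18 and −0.22. The 25S ribosomal RNA control read 9.64 on replicate 2 of the long-day group and between 4.53 and 5.12 on the other 11 arrays. The Bacillus controls, the middle-transcript probe sets and the second 5′ probe sets of actin and GAPDH moved along with the photoperiod without overlap. The 25S control was also higher on every long-day array of the wild type (4.98 to 9.64) than on the short-day arrays (4.53 to 4.85). Replicate 2 of the long-day group aside, that gap was small. The part of RNA and array handling in the results was not tested.

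Short and long days separated a large part of the transcriptome. Of 22746 probe sets 10186 were called, which is 44.8%, with 4949 higher in short days (21.8%) and 5237 lower (23.0%). The levels of the 2 groups did not overlap at 12539 probe sets (55.1%). Of the probe sets naming a single gene 41.5% were called, and of the unnamed ones 49.8%. The median change over all probe sets was −0.007. Most calls were modest in size, with a median of 0.61 among the rises and −0.66 among the falls. A change of at least 2-fold was found for 1291 rises (5.68%) and 1394 falls (6.13%). Rises outnumbered falls among the large changes: 391 probe sets rose and 246 fell at least 4-fold, 159 rose and 77 fell at least 8-fold, and 54 rose and 23 fell at least 16-fold. With the probe sets split into 4 equal groups by level, 8.65% were called higher and 7.73% lower in the dimmest, against 30.7% and 32.6% in the brightest. In whole leaves, fewer cells that express a gene and less RNA per cell cannot be told apart.

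**Figure D1:**
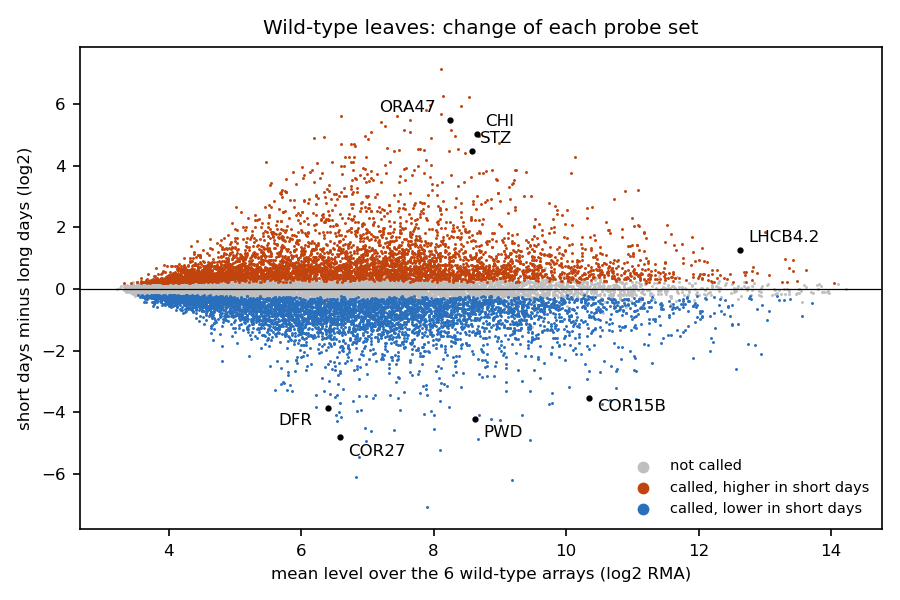
Change of each probe set between short and long days in wild-type leaves (vertical axis, log2, short minus long) against its mean level over the 6 wild-type arrays (horizontal axis, log2 RMA), with called probe sets in colour. The changes run from −7.07 to 7.13, and the points beyond 4 on either side come mostly from rises.

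Transcripts for stress signalling and defence stood among the largest rises. The rule took the 15 largest rises of called probe sets with 1 named gene and no overlap of the groups. These 15 rose by 4.62 to 6.25 on the log2 scale (24.5-fold to 76.3-fold), and 13 of them carry only a locus in the tables used here. The largest was AT5G48490, at 5.21, 4.84 and 5.03 on the long-day arrays and 11.44, 11.42 and 10.98 on the short-day arrays. AT1G13650 followed with a change of 5.80 and AT3G10930 with 5.60. AT3G10930 read 3.68, 3.87 and 3.88 in long days, no higher than the tryptophan-operon control probe sets, which lay between 3.65 and 3.99 on the wild-type arrays. Against the upper end of these controls it was at least 42.8-fold higher, and its rank among the largest rises is not settled. The largest rise of a gene with a symbol was that of ORA47, an AP2/ERF transcription factor that activates genes of jasmonate synthesis. It read 5.77, 5.05 and 5.75 in long days and 11.10, 11.00 and 10.84 in short days. The 2 groups lay far apart, with a change of 5.46 ± 0.161 (SE), adjusted p = 5.93e-11. CHI (AT2G43570), a chitinase-family gene, read 6.27, 5.95 and 6.22 in long days and 11.19, 11.05 and 11.23 in short days. Its change was 5.01 ± 0.17 (SE), or 32.2-fold, adjusted p = 1.97e-10. The other 10 genes of this set were AT4G29780 (5.41), AT2G20670 (5.10), AT2G24550 (5.08), AT3G48650 (4.96), AT3G04640 (4.95), AT3G02840 (4.92), AT3G01830 (4.88), AT3G06070 (4.85), AT1G32920 (4.73) and AT4G27450 (4.62). Of these AT3G02840 and AT3G01830 also had long-day means within the range of the controls, so they were at least 28.2-fold and 24.9-fold higher.

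Since so few of these carry a symbol, the 40 largest rises of genes with one were also taken, a choice made after the values had been seen. They ran from 1.62 to 5.46. STZ, a zinc-finger repressor induced by many stresses, came after CHI, at 6.34, 6.25 and 6.43 in long days and 10.93, 10.63 and 10.86 in short days, a 22.1-fold rise (adjusted p = 1.08e-11). SAL2, a relative of the phosphatase SAL1, rose by 3.6, the cytochrome P450 gene CYP71B26 by 3.36 and the sugar-responsive growth gene EXO by 3.15. UGT76B1, which glucosylates isoleucic acid and salicylate, rose by 3.02 from levels of 4.39 to 5.01 to levels of 7.61 to 7.88. TET8, a tetraspanin of the plasma membrane, was already well expressed in long days (9.15, 9.06 and 8.97) and stood at 11.68, 11.63 and 11.85 in short days, 6.32-fold higher. The methionine sulfoxide reductases MSRB9 and MSRB5, which repair oxidised methionine, rose by 2.42 and 1.64. The pectin methylesterase gene ATPMEPCRB rose by 2.72, and AFR, an F-box protein of phytochrome A signalling, by 2.15.

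The 15 largest falls held genes of the clock, starch, pigment and the plastid chromosome. They fell by 3.61 to 6.08 on the log2 scale (12.2-fold to 67.6-fold), and 8 carry only a locus. AT1G07050 led, at 9.64, 10.03 and 9.95 in long days and 3.82, 3.87 and 3.69 in short days, so that a bright transcript ended at the level of the tryptophan-operon controls. Against their upper end it was at least 58.9-fold lower. COR27, a cold-regulated protein that acts on the clock, read 8.84, 9.0 and 9.12 against 4.21, 4.14 and 4.21, a 27.9-fold fall (adjusted p = 4.33e-12). THIC, which makes the pyrimidine part of thiamine in the chloroplast, read 12.28, 12.65 and 12.48 against 8.63, 8.89 and 9.07, 12.2-fold lower. The groups of these 3 genes lay far apart. Also in this set were AT4G30650 (−4.88), AT4G16146 (−4.86), AT5G39410 (−4.6), AT1G31690 (−4.52), the plastid gene psaA (−4.25), PWD (−4.2), AT2G39920 (−4.0), TMT1 (−3.92), AT5G62360 (−3.91), DFR (−3.87), AT1G11700 (−3.64) and the plastid gene accD (−3.63), several of which are described below. Among the 40 largest falls of genes with a symbol, chosen in the same way as the rises, CHL, a plastid lipocalin, fell by 2.90. Falls of the pyruvate decarboxylase PDC2 (−2.86), the carboxypeptidase-like gene SCPL49 (−2.82) and the defensin-like gene LCR69 (−2.75) were of like size. PRXR1, a peroxidase, was among the brightest transcripts in long days (13.80, 13.83 and 13.92) and read 11.25, 10.94 and 11.59 in short days, a change of −2.59. QQS, an Arabidopsis gene known for its effect on leaf starch, fell by 2.28.

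**Figure D2:**
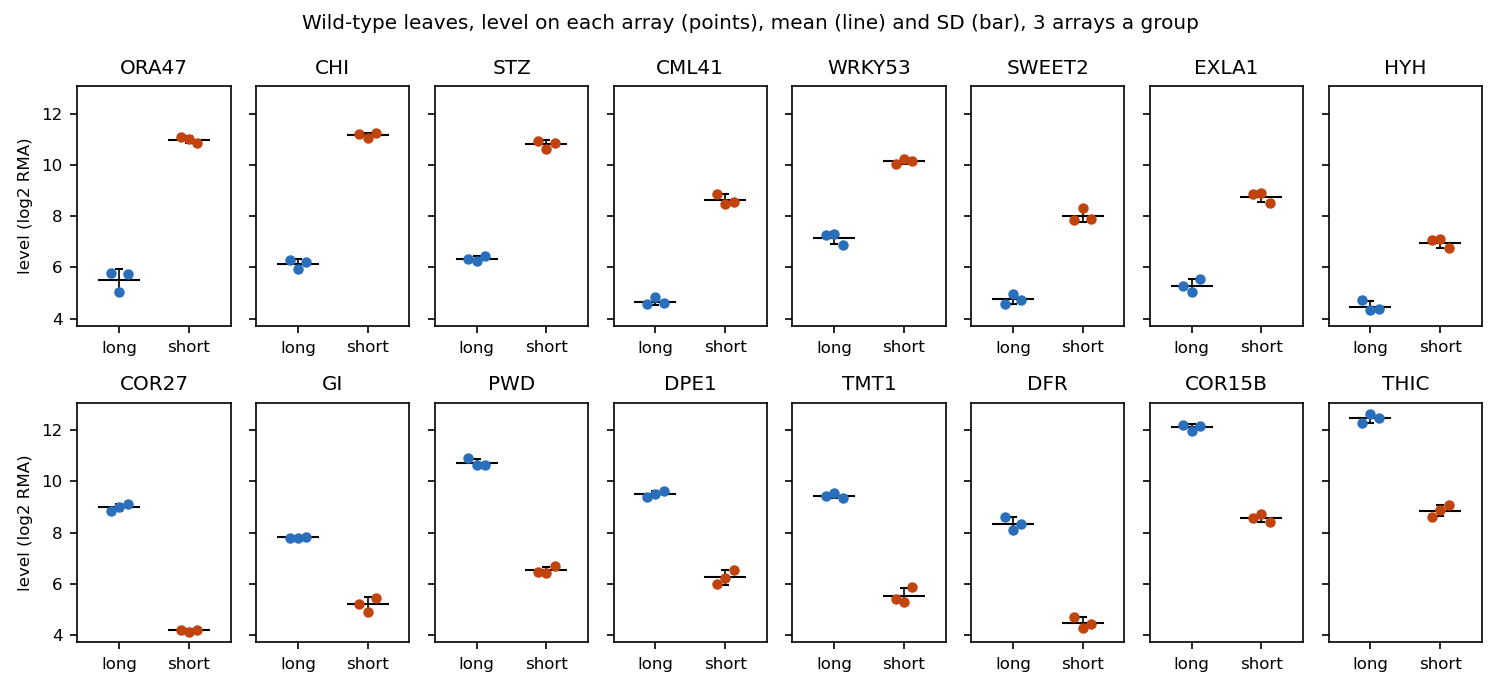
Level (log2 RMA) of 16 named genes on each of the 3 long-day and 3 short-day wild-type arrays, with points for arrays, a line for the mean and bars of 1 SD. The upper 8 genes are higher on every short-day array and the lower 8 lower, for example COR27 at 4.14 to 4.21 against 8.84 to 9.12.

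The gene lists below were counted with the brightest probe set of each gene, against 2739 higher and 2815 lower of all 13356 genes named alone, whose median change was −0.0. The annotation used here names few members of most lists. Measured were 5 of 46 clock names, 4 of 64 salicylate names and 5 of 86 names for cold, drought and abscisic acid. Members that matched no named probe set were not analysed here and may be among the 8730 unnamed ones. Many lists are small, and in 14 of 32 a count in either direction moved by over 1.5 times when 1 wild-type array was left out, often from 1 gene to 0 or 2. Of the circadian clock list 5 genes were measured, and 4 of them fell and 0 rose, with a median of −2.44, where 23.0% of all probe sets fell. Besides COR27 these were GI, TIC and FIO1. GI, which joins the clock to flowering, read 7.79, 7.81 and 7.84 in long days and 5.23, 4.91 and 5.46 in short days, 6.12-fold lower (adjusted p = 1.16e-06). TIC, needed for clock amplitude and timing, read 8.70, 8.74 and 8.56 against 6.01, 6.09 and 6.57, 5.44-fold lower (adjusted p = 5.36e-05). FIO1, which sets clock period, fell by 0.43, and XCT stood at −0.16 without a call. No array of either group crossed into the other for COR27, GI, TIC or FIO1.

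Flowering genes were called about as often as probe sets at large, and in both directions. Of 8 measured genes 2 rose and 2 fell, with a median of 0.07, where 21.8% of all probe sets rose and 23.0% fell. AGL19, a MADS-box activator of flowering, read 3.87, 3.67 and 3.77 in long days and 4.74, 5.15 and 5.05 in short days, a rise of 1.21. Its long-day mean lay within the range of the tryptophan-operon controls, so it was at least 1.99-fold higher. SNZ, an AP2-type floral repressor, rose by 0.49. LD and FY, members of the autonomous flowering pathway, fell by 0.82 and 0.54, and the call of LD (adjusted p = 0.0245) was lost under some alternative settings. FD and SMZ stood at 0.09 and 0.06 and were not called. Of 3 genes of light signalling 2 rose. HYH, a bZIP factor closely related to HY5, read 4.73, 4.32 and 4.36 against 7.06, 7.09 and 6.74, 5.63-fold higher (adjusted p = 5.35e-08). FHL, which carries phytochrome A into the nucleus, rose by 0.36, and the shade-responsive HAT2 stood at −0.16 without a call.

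Measured genes of the starch and sugar metabolism list were mostly lower in short days, with 5 of 7 falling, 1 rising and a median of −0.79. PWD, which phosphorylates starch so that it can be degraded, read 10.92, 10.64 and 10.63 in long days and 6.45, 6.44 and 6.69 in short days, an 18.4-fold fall (adjusted p = 7.28e-08). DPE1, which works on maltotriose released inside the chloroplast, read 9.39, 9.49 and 9.61 against 5.99, 6.22 and 6.56, 9.45-fold lower (adjusted p = 1.51e-09). Neither gene had overlapping groups. APL3, a large subunit of the ADP-glucose pyrophosphorylase that feeds starch synthesis, fell by 1.18, and SBE2.2, a branching enzyme, by 0.64. AMY1, an alpha-amylase outside the chloroplast, was the member that rose, from 5.68, 5.36 and 5.47 to 8.60, 8.47 and 8.50, or 8.11-fold. The sucrose-phosphate synthase gene ATSPS4F fell by 2.82. The list holds it under the name SPS4F, which was not matched, so it is not in these counts. Of 10 genes linked to sugar starvation and darkness, 3 rose and 2 fell, with a median of −0.02. These were EXO, BZIP53 (0.93) and AKINBETA1 (0.83), a subunit of the energy-sensing kinase SnRK1, against ETFQO (−1.04) and MCCA (−0.88), which act in amino acid breakdown.

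All 12 measured genes of the sugar transport list were called, with 7 higher, 5 lower and a median of 0.45. TMT1, which loads sugars into the vacuole, read 9.44, 9.56 and 9.34 in long days and 5.41, 5.28 and 5.89 in short days, 15.1-fold lower (adjusted p = 6.26e-09). Its relative TMT2 fell by 1.16. The vacuolar SWEET genes went the other way. SWEET2 rose from 4.58, 4.97 and 4.73 to 7.85, 8.31 and 7.88, a 9.54-fold change, SWEET17 by 1.81 and SWEET16 by 1.62. The sugar transporter genes SFP1 and SFP2 rose by 1.49 and 1.42. SWEET11, which exports sucrose for phloem loading, read 11.29, 11.19 and 11.24 against 10.17, 10.14 and 10.15, a change of −1.09 with little spread in either group. SWEET13 fell by 0.75. Over the whole family with the symbol SWEET, 9 of 14 genes rose and 3 fell. Without replicate 2 of the short-day group 5 rose, and several of the small rises were of dim transcripts, such as SWEET3 (0.26).

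Most changes of nuclear photosystem genes were small. Of 8 measured, 3 rose, 1 fell and the median was 0.04. The exceptions were 2 of the 3 genes for the minor antenna protein CP29. LHCB4.2 read 12.06, 12 and 11.94 in long days and 13.27, 13.15 and 13.34 in short days, a rise of 1.25 (adjusted p = 1.99e-07). LHCB4.3 read 11.19, 11.27 and 11.29 against 9.60, 9.33 and 9.26, a change of −1.85 (adjusted p = 8.1e-09). LHCB4.1 stood at −0.01 and was not called. PSAN and PSBW rose by 0.24 each, and without long-day replicate 1 or short-day replicate 2 only 1 gene of this list rose. In the Calvin cycle list PRK, the kinase that makes ribulose bisphosphate, fell by 1.28, while RCA, SBPASE and HPR were not called, at −0.43, 0.05 and −0.02. Of 11 genes of tetrapyrrole and chlorophyll synthesis 3 rose and 3 fell, with a median of −0.09. PORB, a light-dependent protochlorophyllide reductase, fell by 1.47 and GSA1, which makes the precursor aminolevulinate, by 1.0. CHLM, a magnesium protoporphyrin methyltransferase, rose by 0.62. CRR42, a factor needed for the chloroplast NDH complex, fell by 2.04, and the chaperonin gene Cpn60beta4, whose product assists NDH assembly, by 2.3.

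More of the measured genes of the plastid chromosome were called lower than higher. Of 69 genes 28 fell and 11 rose, where 23.0% and 21.8% of all probe sets did, and the median change was −0.47. The groups did not overlap at 49 of the 69, where 55.1% of all probe sets had no overlap. Replicates of the plastid genes were less alike than those of other genes. The median SD was 0.15 in long days and 0.432 in short days, against 0.106 and 0.114 for other genes named alone, and short-day replicate 2 was the highest of its group for 51 genes. Long-day replicate 2, the array with the high 25S control, was 0.09 above its group in median level. Without it 20 plastid genes fell and 11 rose, and over all wild-type arrays left out in turn 20 to 31 fell.

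The direction differed between classes of plastid genes. In photosystem I, 6 of 7 genes fell with a median of −1.57, 3 of them without long-day replicate 2 and 3 without short-day replicate 1. psaA, a reaction centre subunit, read 11.30, 11.26 and 10.80 in long days and 7.11, 7.60 and 5.91 in short days, a change of −4.25 ± 0.551 (SE), adjusted p = 4.6e-05. psaB, its partner, fell by 1.77 and psaI by 1.80. All 6 genes of the ATP synthase fell, with a median of −1.91 and a range from −2.41 for atpH to −0.46 for atpE, and 5 or 6 fell when any 1 wild-type array was left out. atpI read 6.05, 6.67 and 6.17 against 3.98, 4.49 and 3.9, without overlap. In the class of other functions 5 of 6 fell. accD, a subunit of the acetyl-CoA carboxylase of fatty acid synthesis, read 10.05, 9.84 and 9.83 against 5.58, 7.30 and 5.95. rbcL, the large subunit of Rubisco, read 9.73, 11.18 and 9.19 against 7.26, 7.65 and 7.60. The groups of these genes were apart, and the array with the high 25S control was the highest long-day value for rbcL. Photosystem II differed from this, with 2 of 15 falling, 2 rising and a median of −0.13. psbC and psbD, antenna and reaction centre subunits, fell (−2.65 and −2.55), while psbL and psbJ rose by 0.70 and 0.69. psbA, the D1 subunit, stood at −0.31 and was not called. The NDH genes included 4 falls and 1 rise among 10, with 2 falls when any 1 of 5 of the 6 wild-type arrays was left out (all but short-day replicate 2), and ndhK fell by 2.51. Ribosomal protein genes rose more often than they fell, 7 against 3 of 15, with a median of 0.55. rpl36 (1.35), rps3 (1.23), rps15 (1.11) and rps18 (1.01) rose, while rpl16 read 10.63, 10.77 and 10.38 against 7.21, 7.60 and 7.98, a change of −3.00. Among genes of the plastid RNA polymerase, rpoA rose by 1.21 and rpoC1 and rpoC2 stood at −1.22 and −1.31 without a call.

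**Figure D3:**
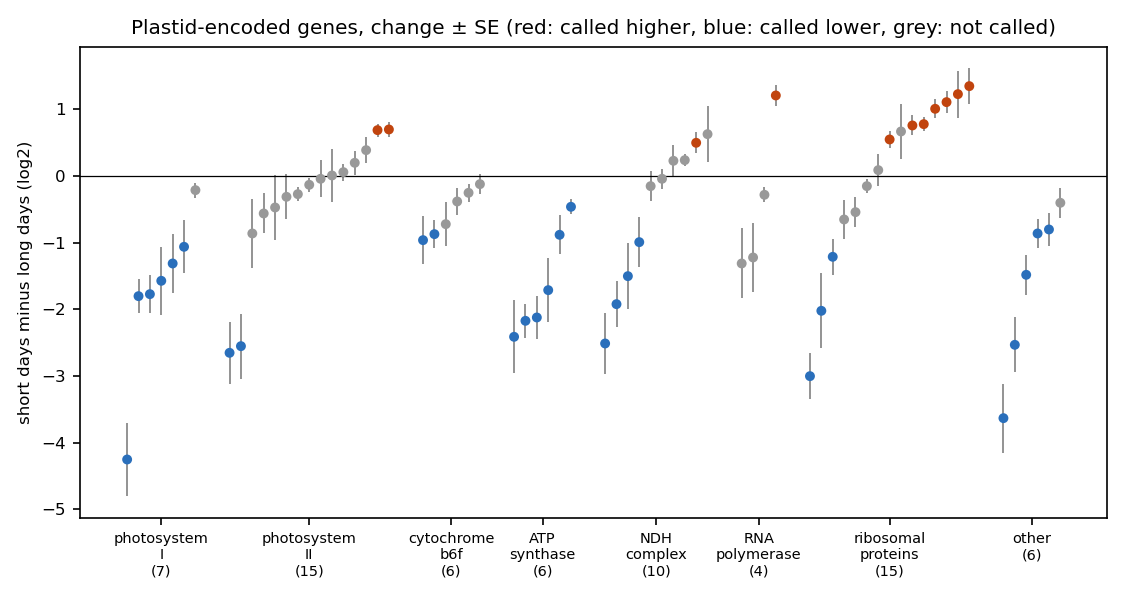
Change of the 69 measured plastid-encoded genes between short and long days in wild type (log2, short minus long), each point a gene with its SE, grouped by the complex it belongs to. The 6 ATP synthase genes lie below 0, from −2.41 to −0.46, and 7 of the 15 ribosomal protein genes are called above it.

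Anthocyanin and phenylpropanoid genes were split, with 5 of 10 lower, 3 higher and a median of −0.13. DFR, which commits flavonoids to anthocyanin, read 8.60, 8.09 and 8.35 in long days and 4.72, 4.28 and 4.42 in short days, 14.7-fold lower (adjusted p = 4.45e-09). UF3GT, an anthocyanin glycosyltransferase, read 7.64, 7.54 and 8.11 against 5.40, 5.28 and 5.09, 5.68-fold lower. UGT78D1, which adds rhamnose to flavonols, fell by 0.95. On the lignin side HCT rose by 1.08 and CCOAMT by 1.34. Of 50 glycosyltransferases of secondary metabolism 15 fell and 7 rose, with a median of −0.07. Rises of 1.79 for UGT74D1 and 1.6 for UGT87A2 stood beside falls of UGT71B1 (−1.53) and UGT84A3 (−1.49). Of 7 glucosinolate genes 2 rose, BCAT4 by 0.45 and AOP1 by 0.71, and 0 fell, with 1 rise without long-day replicate 1 or 3 or short-day replicate 1 or 2.

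Most of the few measured cold-regulated genes were lower in short days. With days at 20 °C and nights at 18 °C in both groups, short-day plants had 16 h at 18 °C and long-day plants 8 h. The part of temperature was not tested. Of 5 genes for cold, drought and abscisic acid 4 fell and 1 rose, with a median of −1.15. COR15B, which protects chloroplast membranes in the cold, read 12.21, 11.97 and 12.18 in long days and 8.56, 8.74 and 8.43 in short days, 11.7-fold lower (adjusted p = 4.22e-11). Its sister gene COR15A read 12.31, 12.32 and 12.32 against 10.77, 10.23 and 10.70, a change of −1.75. The dehydrin gene COR47 fell by 1.15 and the late embryogenesis gene LEA4-5 by 0.80. The dehydrin LTI30 was the riser (0.50, adjusted p = 0.0371), and its call was lost without any 1 wild-type array other than short-day replicate 3.

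Most of the few measured defence genes tied to salicylate and to the sensing of microbes were higher in short days. All 4 measured salicylate genes rose, with a median of 1.74, where 21.8% of all probe sets rose. WRKY53, a transcription factor of defence and leaf ageing, read 7.26, 7.31 and 6.88 in long days and 10.05, 10.25 and 10.14 in short days, 7.98-fold higher (adjusted p = 1.15e-09). GRX480, a glutaredoxin that binds TGA factors, read 5.65, 5.84 and 5.50 against 8.31, 8.29 and 8.61, 6.68-fold higher. SAG101 and the salicylate methyltransferase BSMT1 rose by 0.75 each. The long-day mean of BSMT1 (3.72) lay within the range of the tryptophan-operon controls, so it was at least 1.39-fold higher. Of 10 genes of pattern-triggered immunity 7 rose and 1 fell, with a median of 1.82. These include CHI and STZ and 4 calmodulin-like calcium sensors. CML41 read 4.57, 4.83 and 4.6 against 8.88, 8.49 and 8.54, 15.7-fold higher. CML38 rose by 3.72, CML37 by 2.48 and CML43 by 0.60, and CML23, outside the list, by 3.11. CML37, at the level of those controls in long days, was at least 5.1-fold higher. CML42 was the member that fell (−1.80). WRKY22, a factor downstream of flagellin sensing, rose by 1.16, whereas the receptor EFR (0.04) and the kinase BIK1 (−0.29) were not called.

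Other hormone lists showed smaller or mixed changes. Of 10 jasmonate genes 3 rose and 3 fell, with a median of 0.04, and without long-day or short-day replicate 2 only 1 rose. The defensin PDF1.2, a marker of jasmonate and ethylene responses, read 8.26, 8.46 and 8.51 in long days and 6.8, 6.43 and 6.50 in short days, a change of −1.83. PDF1.2b, which is nearly identical in sequence so that its signal may be shared, fell by 1.04. OPCL1, an enzyme of jasmonate synthesis, rose by 0.93. The 3 ethylene genes had a median of −0.56, with ARL at −0.91, EIN3 at −0.56 and RTE1 at 0.42, all called, and 0 rose without short-day replicate 1. Of 12 auxin genes 4 rose and 1 fell, with a median of 0.14, led by IAA29 and the auxin synthesis gene YUC2 (0.70 each). Gibberellin and brassinosteroid genes included 3 falls and 0 rises among 7, with a median of −0.33. The gibberellin receptor GID1A read 7.64, 7.5 and 7.82 against 5.90, 5.89 and 6.04, a change of −1.71 (adjusted p = 2.02e-07). Its relative GID1C fell by 0.65 and SPY, a repressor of gibberellin signalling, by 0.95. Without long-day replicate 1, 5 of these 7 fell.

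Lists of growth genes moved in different directions. Of 6 leaf growth regulators 4 fell and 0 rose, with a median of −0.50: YAB5 (−0.94), TCP15 (−0.89), YAB3 (−0.67) and NGA1 (−0.34). Of 8 genes of cytokinin and cell division 3 fell and 1 rose, with a median of −0.10. RR16, a type-A response regulator of cytokinin signalling, read 8.94, 9.31 and 9.45 in long days and 5.72, 6.44 and 5.50 in short days, 10.2-fold lower (adjusted p = 1.47e-07). ARR15, of the same type, rose by 1.4. PRL, a subunit of the replication helicase, fell by 1.52 and SIM, a cell-cycle inhibitor of trichomes, by 0.87. The aurora kinases AUR1, AUR2 and AUR3 stood at 0.24, −0.04 and −0.07 and were not called. Of 24 expansins and wall-loosening genes 11 rose and 7 fell, with a median of 0.13. EXLA1, an expansin-like gene, read 5.28, 5.02 and 5.54 against 8.86, 8.91 and 8.53, 11.2-fold higher (adjusted p = 7.65e-10). EXPB1 rose by 1.75 and the xyloglucan enzymes XTH32 and XTH16 by 1.51 and 1.33, while the alpha-expansins EXPA4 and EXPA16 fell by 1.51 and 1.3. Of 7 genes of cellulose and wall synthesis 2 rose and 2 fell, all under 2-fold. Without long-day replicate 1 the rises were 0, and without long-day replicate 3, short-day replicate 1 or short-day replicate 3 they were 1. The falls were 1 without long-day replicate 3, short-day replicate 1 or short-day replicate 2. SHN3, a wax and cutin regulator, fell by 1.13, and WSD1 was not called (−0.02).

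In redox metabolism 5 of 15 genes rose and 5 fell, with a median of 0.18. Besides STZ, the glutathione reductase GR1 rose from 8.27, 8.42 and 8.22 to 9.86, 9.99 and 9.99, a change of 1.64, and VTC4, an enzyme of ascorbate synthesis, by 1.48. GLDH, which makes the last step to ascorbate in mitochondria, fell by 1.4 and the stromal ascorbate peroxidase SAPX by 1.12. The thioredoxin TRXF2 rose by 1.04, whereas the m-type thioredoxin ATHM2 fell by 0.54. In sulfur assimilation the sulfite reductase SIR fell by 1.11 and the ATP sulfurylase APS4 by 0.65, APS3 rose by 0.35, and BGLU28 was not called (0.05). Metal-related genes showed 3 rises among 5 and 0 falls, with a median of 1.28. MT1C, a metallothionein, read 8.81, 8.46 and 8.95 against 11.25, 11.14 and 11.01, 5.25-fold higher. BHLH101 of the iron deficiency response rose by 1.57 and CCS, the copper chaperone of superoxide dismutase, by 1.28. In the list for nitrogen and phosphate SIZ1 fell by 0.83, and NRT2.5 (0.10) and LPR1 (−0.06) were not called.

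Of 8 senescence genes 5 rose and 2 fell, with a median of 0.49, and 3 of the 5 (WRKY53, WRKY22 and SAG101) are also counted under defence. GAMMA-VPE, a vacuolar protease of ageing and stressed leaves, fell, with 12.14, 12.15 and 12.05 in long days and 9.89, 9.95 and 10.02 in short days, a change of −2.16 (adjusted p = 5.91e-10). Of 11 autophagy genes 4 rose and 1 fell, with a median of 0.10, and 2 rose without long-day replicate 2, short-day replicate 1 or short-day replicate 2. ATG8E, a ubiquitin-like protein of the autophagosome, read 6.45, 6.64 and 6.44 against 8.94, 8.92 and 8.58, 4.94-fold higher, while ATG8D fell by 1.68. Of 7 genes of protein folding 3 rose and 1 fell, with a median of −0.23. AT5G48570 rose by 2.74 and BZIP60, a factor of the unfolded protein response, by 1.11.

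Families of genes that share a symbol were searched for a common direction. Those with at least 8 measured genes and 50% or more called one way are given here or, for SWEET, above. They were picked by these counts, so their common direction is a description and no test. Of all probe sets 21.8% were called higher and 23.0% lower. Other families did not reach 50%, such as UGT with 7 higher and 13 lower of 47. Among 15 tetraspanins (TET) 8 rose and 1 fell, with a median of 0.23, and 5 rose without long-day replicate 1 or 2. Besides TET8 their rises were under 2-fold. Among 9 plant U-box ubiquitin ligases (PUB) 5 rose and 0 fell, with a median of 0.56. PUB19 rose by 2.13, PUB26 by 1.23, and PUB22 and PUB23, which dampen immune signalling, by 1.12 and 0.56. Ubiquitin-specific proteases (UBP) went the other way, with 8 of 12 lower, 1 higher and a median of −0.71. UBP15, which acts in leaf growth, read 7.31, 7.13 and 7.06 in long days and 5.61, 5.60 and 5.80 in short days, a change of −1.5. Calmodulin-binding IQD proteins fell in 9 of 15 cases and rose in 1, with a median of −0.45, led by IQD31 (−1.77) and IQD24 (−1.48). Among 8 aldehyde dehydrogenases (ALDH) 5 fell and 2 rose, with a median of −0.43, led by ALDH6B2 (−1.43), and 3 fell without short-day replicate 2. Among 10 alpha-expansins (EXPA) 5 fell and 2 rose, with a median of −0.26. Here 0 rose without long-day replicate 1 and 1 without any single short-day array. The RPS family, of which 4 of 8 rose, consists of the plastid ribosomal protein genes given above.

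**Figure D4:**
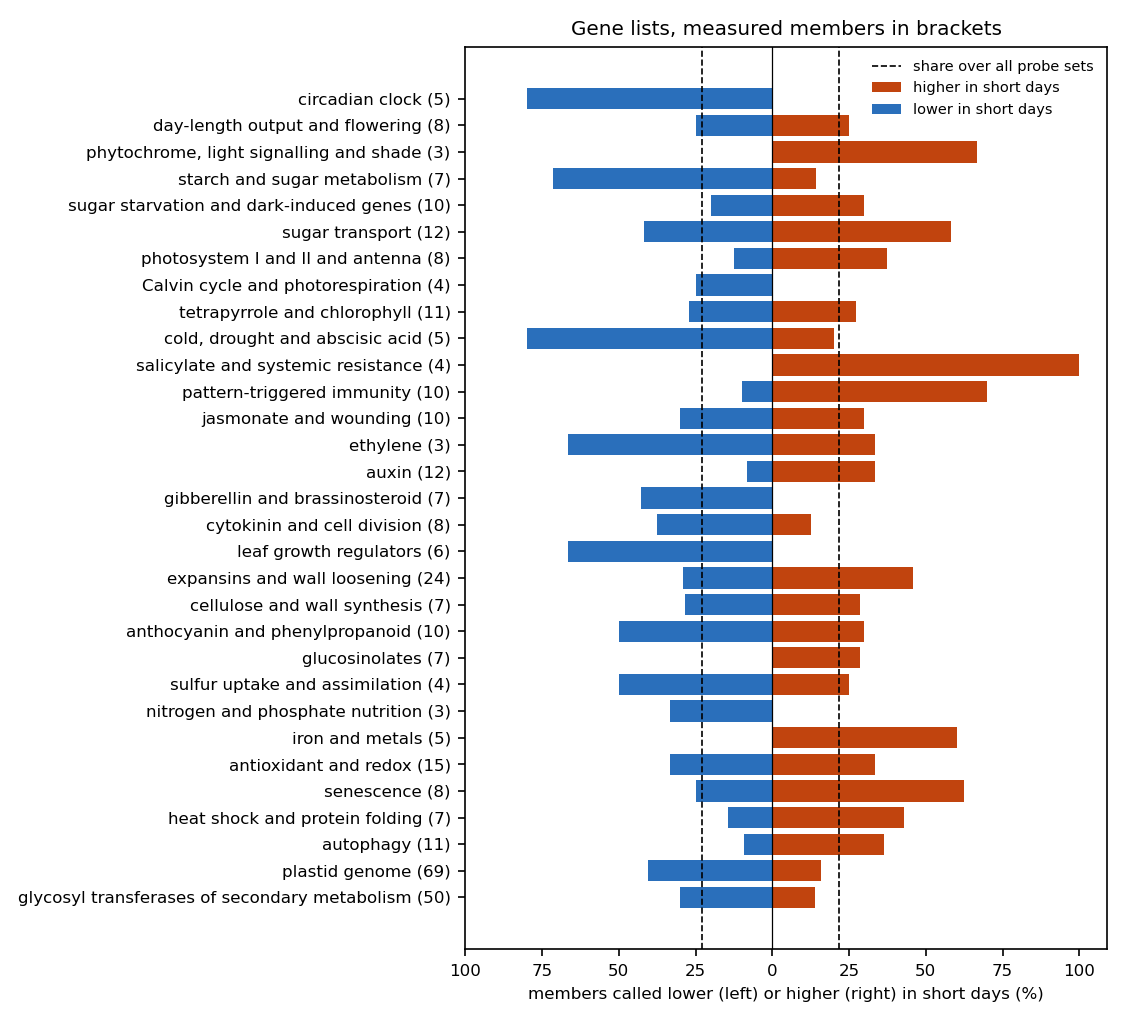
Share of the measured members of each list that were called lower (left, blue) or higher (right, red) in short days, in percent, with the number measured in brackets and dashed lines at the shares over all probe sets, 23.0% and 21.8%. The bars reach furthest for small lists, such as salicylate (4 of 4 higher) and the clock (4 of 5 lower).

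Whether the contrast was the same in cs26 was asked with the difference of the effects in the limma model, which uses separate arrays for each genotype. In cs26 9849 probe sets were called between the photoperiods (43.3%), with 4890 higher in short days (21.5%) and 4959 lower (21.8%). The effects differed between the genotypes at 6268 probe sets (27.6%). The short-minus-long change was the higher one in cs26 at 3370 (14.8%) and the lower at 2898 (12.7%). Across all probe sets the changes correlated with Pearson r = 0.489 and Spearman rho = 0.46, a description over probe sets, which are not independent. Of the 10186 wild-type calls, 5087 (49.9%) were called in the same direction in cs26, 1158 (11.4%) in the opposite direction, and the effect differed at 4262 (41.8%). Of the 1291 rises of at least 2-fold 847 were called in the same direction (65.6%), and their median change was 1.54 in wild type and 0.85 in cs26. Of the 1394 falls 902 were called in the same direction (64.7%), with medians of −1.35 and −0.74. These probe sets were picked for the size of their change in wild type, so the smaller medians in cs26 are a description and no test of a difference. Of these rises 266 (20.6%) were called lower in cs26, against 68 (4.88%) called the opposite way among the 1394 falls of at least 2-fold.

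For some large changes no difference between the genotypes was called. ORA47 rose by 5.27 in cs26 and by 5.46 in wild type (adjusted p of the difference 0.629, difference −0.18 ± 0.228 SE). COR27 fell by 4.89 and 4.80 (adjusted p of the difference 0.712) and TMT1 by 3.5 and 3.92 (0.305). The 15 largest falls of the wild type were all called lower in cs26 as well, but for 10 of them the effect differed, with the smaller fall in cs26. These falls were picked on wild-type changes that the difference also uses, so a smaller fall in cs26 was favoured in advance. Defence genes differed. CHI changed by −3.14 in cs26 against 5.01 (adjusted p of the difference 1.74e-10), CML41 by −2.71 against 3.97, WRKY53 by −1.5 against 3.00 and GRX480 by −1.38 against 2.74. In long days their mean levels were higher in cs26 than in wild type. They were 10.37 against 6.15, 9.27 against 4.67, 9.63 against 7.15 and 8.21 against 5.66, in the same order. In short days the means were lower in cs26, at 7.23 against 11.16, 6.56 against 8.64, 8.13 against 10.15 and 6.83 against 8.4. The effect differed for 4 of 4 salicylate genes and 9 of 10 genes of pattern-triggered immunity, whose median change was −0.84 and −0.36 in cs26. Beside these and the list counts below, the effect differed at 27.6% of all probe sets and 41.8% of all wild-type calls. Of the 5 cold genes COR15B, COR15A and COR47 were called in opposite directions, with COR15B at 2.33 in cs26 against −3.54 in wild type (adjusted p of the difference 3.64e-11), COR15A at 4.45 against −1.75 and COR47 at 1.18 against −1.15. In the starch list 6 of 7 genes differed, including PWD at −2.21 against −4.2, DPE1 at −1.91 against −3.24 and AMY1 at −0.40 against 3.02. Of the sugar transporters, all called in wild type, 4 of 12 differed, where 41.8% of all wild-type calls did. Among them was SWEET13 at 3.15 against −0.75. Of the 69 plastid genes 20 differed, near the share of 27.6% over all probe sets. In cs26 25 of them were called higher and 14 lower, where 21.5% and 21.8% of all probe sets were. In 8 of 15 plastid ribosomal protein genes the effect differed, for example rps3 at 3.25 against 1.23. Of the 5 clock genes only GI differed, at −1.04 against −2.61.

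**Figure D5:**
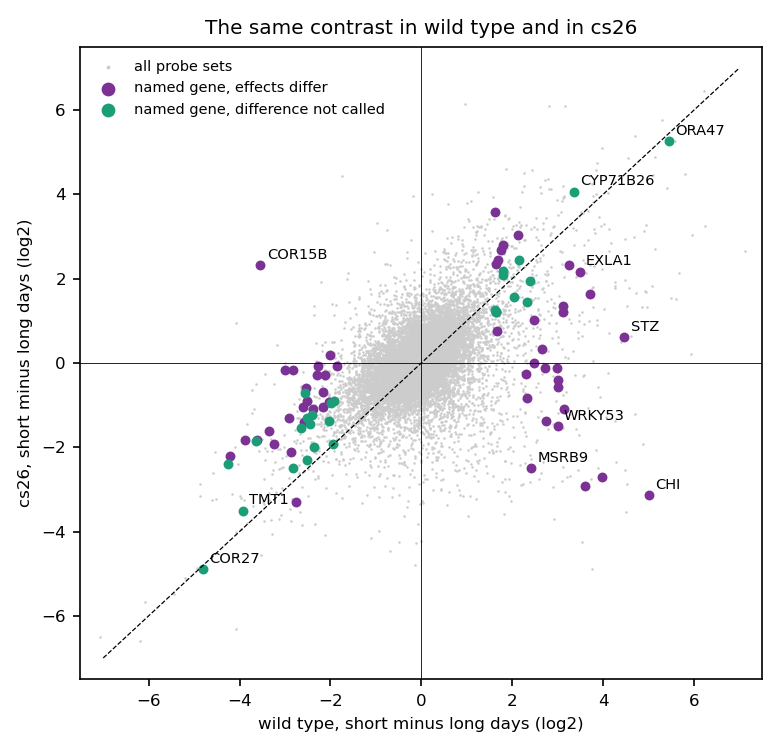
Change between short and long days in wild type (horizontal axis) and in cs26 (vertical axis), both log2 short minus long, for all probe sets (grey) and for the 40 largest rises and 40 largest falls of genes with a symbol in wild type (coloured by whether the difference of the effects was called). ORA47 and COR27 lie near the dashed line of equal change, and CHI and COR15B lie in the quadrants of opposite sign.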

How the data were processed

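Levels came from the deposited table of 12 ATH1 arrays, 1 array per sample, on a log2 scale with 2 decimals (3.12 to 14.27, 0 missing values). RMA and the affy package are named per the submitters' processing notes, with versions not given in the sources used here. RMA equalises the distributions of arrays, which removes any shift common to most transcripts, and it compresses differences of dim probe sets. Precision is limited by 3 arrays a group. Each p-value weighs a difference of groups against an error estimated from the replicates of all 4 groups. That error is also drawn toward the spread common to all probe sets, and it holds no spread beyond these arrays.

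All 12 arrays entered a model with a mean per group in limma 3.58.1 (lmFit and eBayes, R 4.3.3; 8 residual and 4.32 prior degrees of freedom), checked on simulated data. Wild type in short days was set against wild type in long days, and the difference of this effect from that in cs26 was fitted. Adjustment was by Benjamini-Hochberg over 22746 probe sets, the 64 controls left out. Errors are the model's SE. Names came from the platform annotation, updated through the gene table of TAIR10.1 for 13436 of 13513 probe sets naming 1 gene, and no coordinate of that table was used. Probe sets naming several genes (503) or none were tested and not named.

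The text names the 15 largest rises and falls among called probe sets naming 1 gene with groups apart, up to 6 called and 2 uncalled members of each list, and families of at least 8 genes. The 40 largest rises and falls of genes with a symbol, single plastid genes and TMT2, SWEET13, SWEET3, CML43, ATHM2, AUR3 and HPR were named after their values were seen. Members and lists were chosen with earlier results of these data known. The lists for cytosolic and nuclear-encoded plastid ribosomes, the mitochondrial genome, receptor-like kinases and NBS-LRR proteins found 0 genes, because the gene table used here holds no descriptions for their rules, and were not analysed here. Plastid classes and counts without single arrays were added after the data were seen. Replicate numbers did not pair the samples (correlations of same-numbered deviations −0.0522, 0.0476 and −0.162). Alternatives were a replicate block, only the wild-type arrays, bright probe sets alone, a trended robust prior, array weights, quantile normalization, median centring, a stricter threshold and each array left out.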

Additional observations from a re-analysis of the deposited data

Results flagged for a closer look

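The difference of the short-day effect between cs26 and wild type was called at 6268 probe sets in the limma model. Among the 15 largest wild-type rises it was called for 14 genes, each time with the lower value in cs26: CHI (−8.15), AT3G01830 (−6.79), AT3G10930 (−4.09), AT4G27450 (−3.97), AT3G48650 (−3.63), AT3G06070 (−3.51), AT3G04640 (−3.26), AT2G24550 (−3.25), AT3G02840 (−3.23), AT1G32920 (−3.06), AT5G48490 (−2.99), AT1G13650 (−1.32), AT4G29780 (−1.26) and AT2G20670 (−0.64), all on the log2 scale as cs26 minus wild type. Among the 15 largest falls it was called for 10 genes, each with the smaller fall in cs26: AT1G11700 (3.15), DFR (2.04), AT4G30650 (2.02), PWD (2.0), THIC (1.79), AT4G16146 (1.7), AT5G39410 (1.36), AT1G31690 (1.3), AT2G39920 (0.84) and AT5G62360 (0.65). The lower value here is that of the short-minus-long change and not of the level. The genes were picked for their extreme changes in wild type, and the difference subtracts those same changes. A smaller change in cs26 was therefore favoured in advance, and these counts are a description and no test.

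The 25S ribosomal RNA control, which lies outside the measured transcripts, read 9.64 on long-day replicate 2 of the wild type, above the 4.53 to 5.12 of the other 11 arrays. Counts without this array stand beside the plastid genes.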

How the results depend on the processing

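The count of probe sets called between short and long days in wild type (10186) was 8484 to 9570 when 1 wild-type array was left out, 9654 with a replicate block in the fit of 12 arrays and 9513 with it in the fit of the 6 wild-type arrays, 10102 with those 6 arrays alone, 7106 among bright probe sets and 7244 at an adjusted p under 0.01. The count of effects that differed in cs26 (6268) was 5352 to 6305 with 1 array left out, 5770 with the replicate block and 4057 at an adjusted p under 0.01, where the stricter threshold itself lowers the count. Quantile normalization gave 10269 and 6196, median centring 9925 and 6131, array weights 11105 and 7100, and a trended robust prior 10519 and 6225. Of 408 named genes called in wild type, 0 reversed direction and 89 lost their call in at least 1 of the settings that keep the threshold of 0.05, among them LD, LTI30, MYC4, EIN3, AOP1, PSAN, PSBW, APG8A and the plastid genes psaC, ycf3, ycf4, atpB, petG, ndhD, ndhH and cemA. With the replicate block 17 lost their call in the fit of 12 arrays and 30 in that of 6. The numbers pair no samples by the labels or by the correlations given above. Calls were fewer among dim probe sets, and the cause was not tested.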
